A study of Mus musculus with 8 samples.

Results

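The 64 genes described here carry the names of families of spliceosome, hnRNP and SR proteins. They were chosen by symbol alone, as every gene whose name begins with Snrp, Lsm, Hnrnp or Hnrp, Srsf or Sfrs, Sf3a or Sf3b and goes on as a gene of that family does, out of 23284 genes in the count files. By name they fall into 5 groups, with 12 snRNP core genes (Snrp), 12 Sm-like genes (Lsm), 20 hnRNP genes, 12 SR protein genes and 8 SF3 genes. No measured value entered the choice, and all 64 passed the filter on low counts. Sfrs18 enters under an old symbol and is now Pnisr, a gene for a serine/arginine-rich protein outside the classical SR family. Not every member codes for a part of the spliceosome, and Lsm10, Lsm11, Lsm14a and Lsm14b are described below in other roles.

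RNA was sequenced from microdissected peripheral retina of mice at postnatal day 12. In 4 libraries, called Rb-null, a Cre recombinase under the alpha enhancer of Pax6 acted on floxed Rb (Rblox/lox), which codes for the retinoblastoma tumour suppressor. In the other 4, called TET-MYCN, the mice carried the same Cre with Rosa26LSL-RTTA, a Cre-dependent tetracycline transactivator, and TRE-MYCN, a MYCN transgene under its control. The genotype label calls both groups Rb null, but the design text does not repeat the floxed Rb allele for the second, and the labels say nothing of doxycycline. The alpha enhancer is active in only part of the retinal lineage, so the tissue can hold cells without Cre. Whether a library is 1 animal or a pool is not stated, so a p-value here speaks only of how these 8 libraries vary, which may be technical. By its labels, the series sets Rb-null retina against Rb-null retina that overexpresses MYCN.

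Libraries held 14872131 to 22873979 reads counted in genes, of which 1.48% to 1.96% fell in the 64 genes. Levels are given as CPM, counts scaled to a common library size, and a count of 3 corresponded to 0.13 to 0.202 CPM. TET-MYCN 3 had the largest share of reads aligned to several places, 12.8% against 9.05% to 11.7% in the other 7 libraries, and the smallest share outside genes, 15.1% against 17.7% to 19.7%. Mycn was at 231 ± 94.9 CPM in the libraries labelled Rb-null and 242 ± 37.6 CPM in those labelled TET-MYCN (SD, n = 4 each), and Rb1 at 161 ± 21.9 and 154 ± 23.5 CPM. Neither passed the test (log2 fold changes 0.07 ± 0.28 and -0.06 ± 0.14, SE, adjusted p = 0.934 and 0.883), whether transgene reads were counted at Mycn is not known here, and every direction below rests on the labels alone. All 14 rod markers were detected and all 14 had a negative log2 fold change, their summed level being 5332 to 22895 CPM for Rb-null and 3815 to 8942 CPM for TET-MYCN. All 15 markers of cycling cells had a positive one, with summed levels of 1814 to 3545 and 3031 to 3746 CPM. Bipolar cell markers were all negative (8 of 8, summed 356 to 921 CPM for Rb-null and 290 to 444 CPM for TET-MYCN), as were 10 of 11 tested lens markers (25.1 to 579 and 13.3 to 57.2 CPM). All 7 tested markers of pigment epithelium and ciliary body were positive (43.4 to 65.1 and 60.8 to 257 CPM). The other lists were mixed. Of 10 retinal progenitor markers 8 were positive, with summed levels of 1091 to 1231 CPM for Rb-null and 1000 to 1194 CPM for TET-MYCN. Amacrine and ganglion cell markers had 5 of 10 positive, and retinal neuron markers 4 of 7. Müller glia markers had 2 of 8 positive, and those of microglia and macrophages 6 of 9. No marker in any of these lists was at 0 in all libraries or passed the test.

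The spliceosome removes introns from pre-mRNA. Its snRNPs are small nuclear RNAs on a ring of Sm proteins, which the SMN complex assembles after the PRMT5 methylosome has modified the tails of some of them. Lsm proteins form similar rings, in the nucleus on U6 snRNA and in the cytoplasm on mRNA that is being degraded. SF3A and SF3B belong to the U2 snRNP and hold the branch point. HnRNP proteins coat nascent transcripts and often repress splice sites, while SR proteins mostly favour their use. Several of these genes, among them Hnrnpa1, Srsf1 and Prmt5, are known targets of MYC in tumour cells, and in retina the splicing programme changes as progenitors give way to neurons and photoreceptors.

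None of the 64 genes passed the threshold of an adjusted p of 0.05 between the groups (quasi-likelihood test of edgeR, with Benjamini-Hochberg adjustment across the 15106 genes that entered it). Of all genes tested 0.0596% passed, 0.053% higher and 0.00662% lower in TET-MYCN. The smallest adjusted p among the 64 was 0.173. With an unadjusted p under 0.05, 7 were higher in TET-MYCN, or 10.9% against 8.06% of all genes, and 0 were lower, against 7.72% of all genes. The 7 were Snrpf, Snrpg, Lsm3, Lsm10, Hnrnpab, Hnrpll and Hnrnpa1. This count was 3 without Rb-null 3 (4.69% against 5.22% of all genes), 12 without TET-MYCN 2 (18.8% against 8.63%) and 3 with the replicate number as a block (4.69% against 6.18%). DESeq2 called 1 of the 64, Hnrnpab, against 3.57% of all genes, and limma-voom called 0, as it did over all genes (0%). The log2 fold change was positive for 57 of 64 genes, or 89.1% against 52.2% of all genes, with a median of 0.16 against 0.01. Single values lay between -0.27 and 0.58. For 50 of the 64, or 78.1% against 55.2% of all genes, the 95% interval lay within a 1.5-fold change either way (0.58 on the log2 scale). The 55.2% of all genes also stands beside the counts by group below. In tissue RNA, fewer cells of a type and less RNA per cell cannot be told apart.

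**Figure D1:**
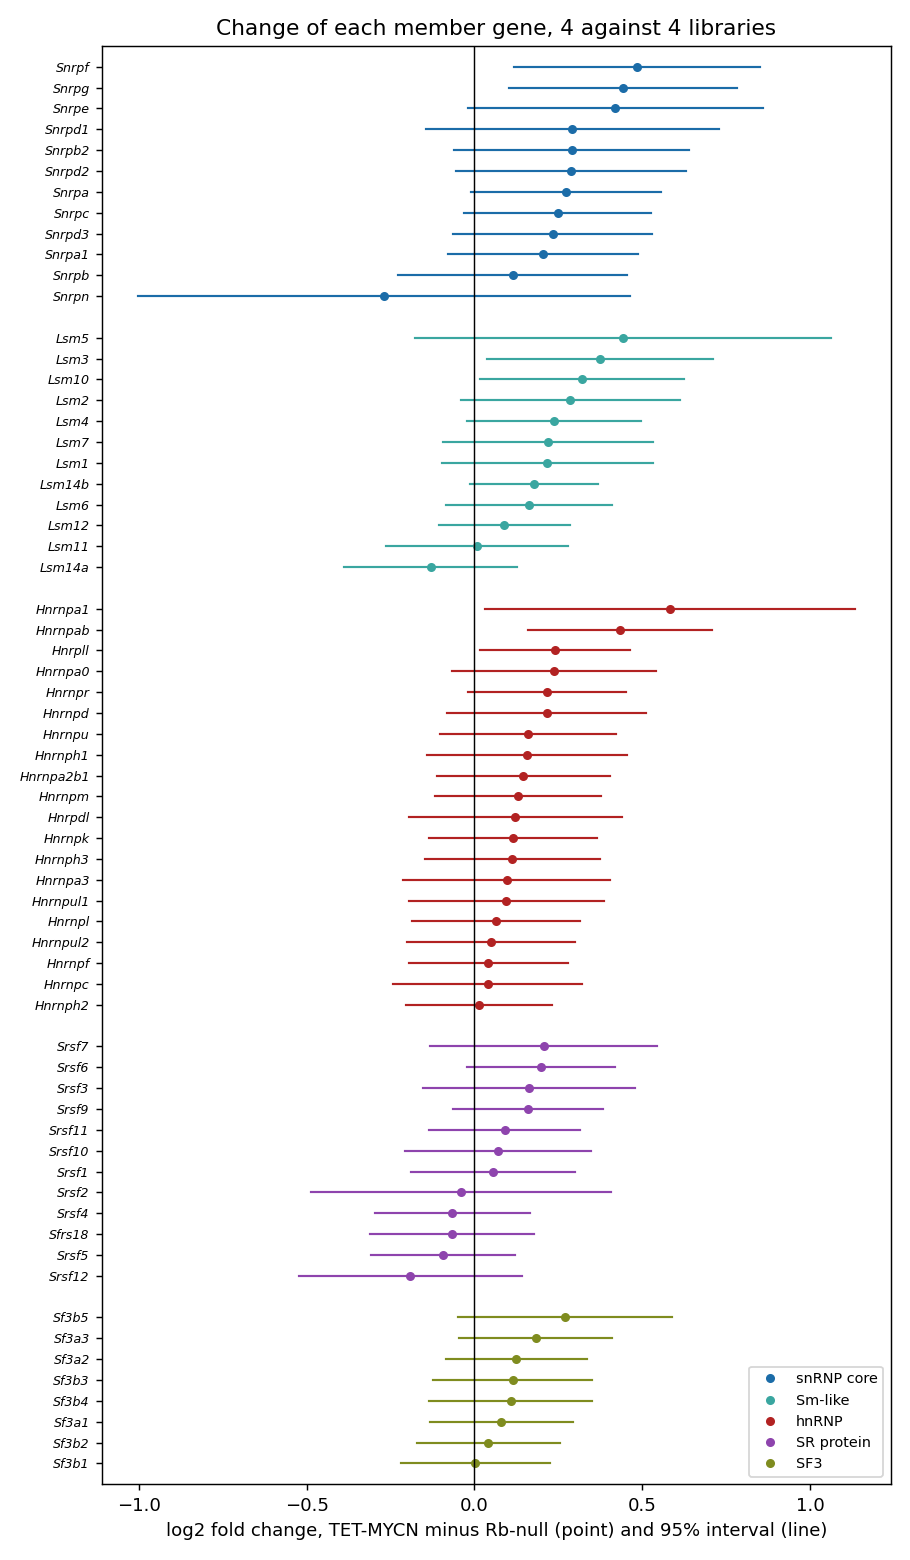
Log2 fold change of each of the 64 genes, TET-MYCN minus Rb-null (horizontal axis), as a point with its 95% interval from the edgeR fit as a line, by group and in falling order within it. All hnRNP and SF3 points lie above 0, the snRNP core points reach 0.48, and the SR protein points lie on both sides of 0.

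The positive values differed in size between the groups. The median log2 fold change was 0.28 for the snRNP core (11 of 12 positive), 0.22 for the Sm-like genes (11 of 12), 0.13 for the hnRNP genes (20 of 20), 0.11 for SF3 (8 of 8) and 0.06 for the SR proteins (7 of 12). These differences between groups were not tested. The order of the groups did not hold without Rb-null 3 and TET-MYCN 3, a pair chosen after seeing the data. The medians then were 0.069 for the snRNP core, 0.074 for the Sm-like genes and -0.04 for the SR proteins. Those of the hnRNP and SF3 genes are given below. Genes with groups that did not overlap numbered 4 of 64, all higher in TET-MYCN, or 6.25% against 4.36% of all genes. None was lower without overlap, against 3.29% of all genes. A share of 4 genes in 64 lies near the share of all genes.

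Much of this pattern went with 1 library in each group. Rb-null 3 was the lowest of the 8 libraries for 39 of 64 genes (60.9%, against 19.5% of all genes tested), and TET-MYCN 3 was the highest for 35 of 64 (54.7%, against 22% of all genes). With levels taken relative to each gene's own mean over the 8 libraries (log2 CPM with a prior count of 2), the median of the 64 was -0.22 in Rb-null 3 and 0.22 in TET-MYCN 3. It was 0.00, -0.03 and -0.06 in Rb-null 1, 2 and 4, and 0.04, -0.01 and 0.06 in TET-MYCN 1, 2 and 4, so the other 6 libraries were close together. Without Rb-null 3 and TET-MYCN 3, a fit chosen after seeing the data, the median log2 fold change was 0.06 with 45 of 64 positive, and with an unadjusted p under 0.05, 2 genes were higher (3.12% against 9.55% of all genes) and 1 was lower (against 8.59% of all genes). Without TET-MYCN 3 alone it was 0.10 with 51 of 64 positive. Rb-null 3 also had the highest summed rod, bipolar and lens markers (22895, 921 and 579 CPM) and the lowest summed markers of cycling cells (1814 CPM), and their part in the result was not tested.

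**Figure D2:**
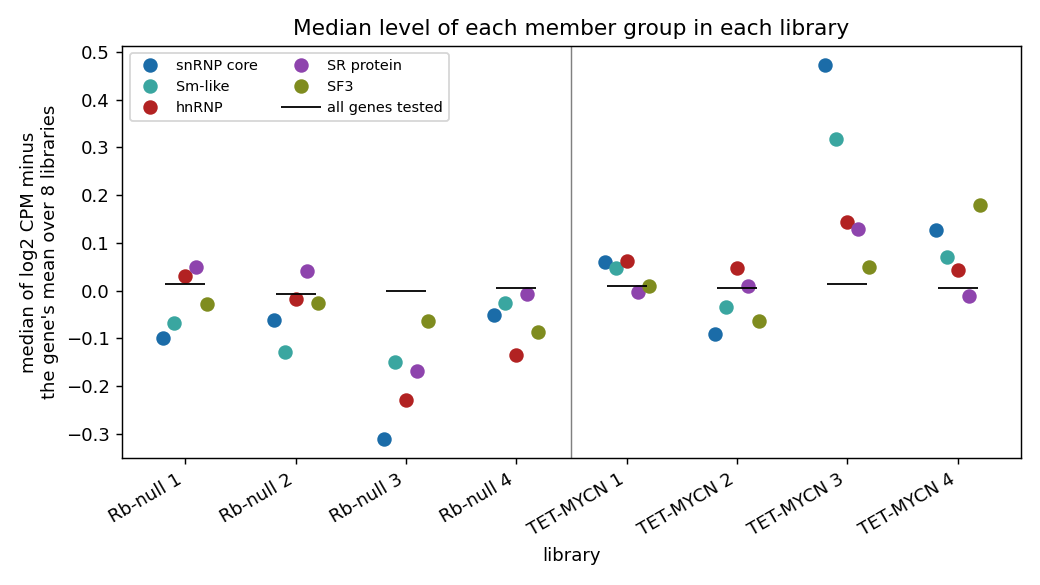
Median over the genes of each group of log2 CPM minus the gene's mean over the 8 libraries (vertical axis), per library, with the median of all genes tested as a black bar. Every group is below all genes tested in Rb-null 3 and in Rb-null 4, and the snRNP core and Sm-like genes stand at 0.47 and 0.32 in TET-MYCN 3. The SF3 genes are lowest in Rb-null 4, at -0.09, and highest in TET-MYCN 4, at 0.18.

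**Figure D3:**
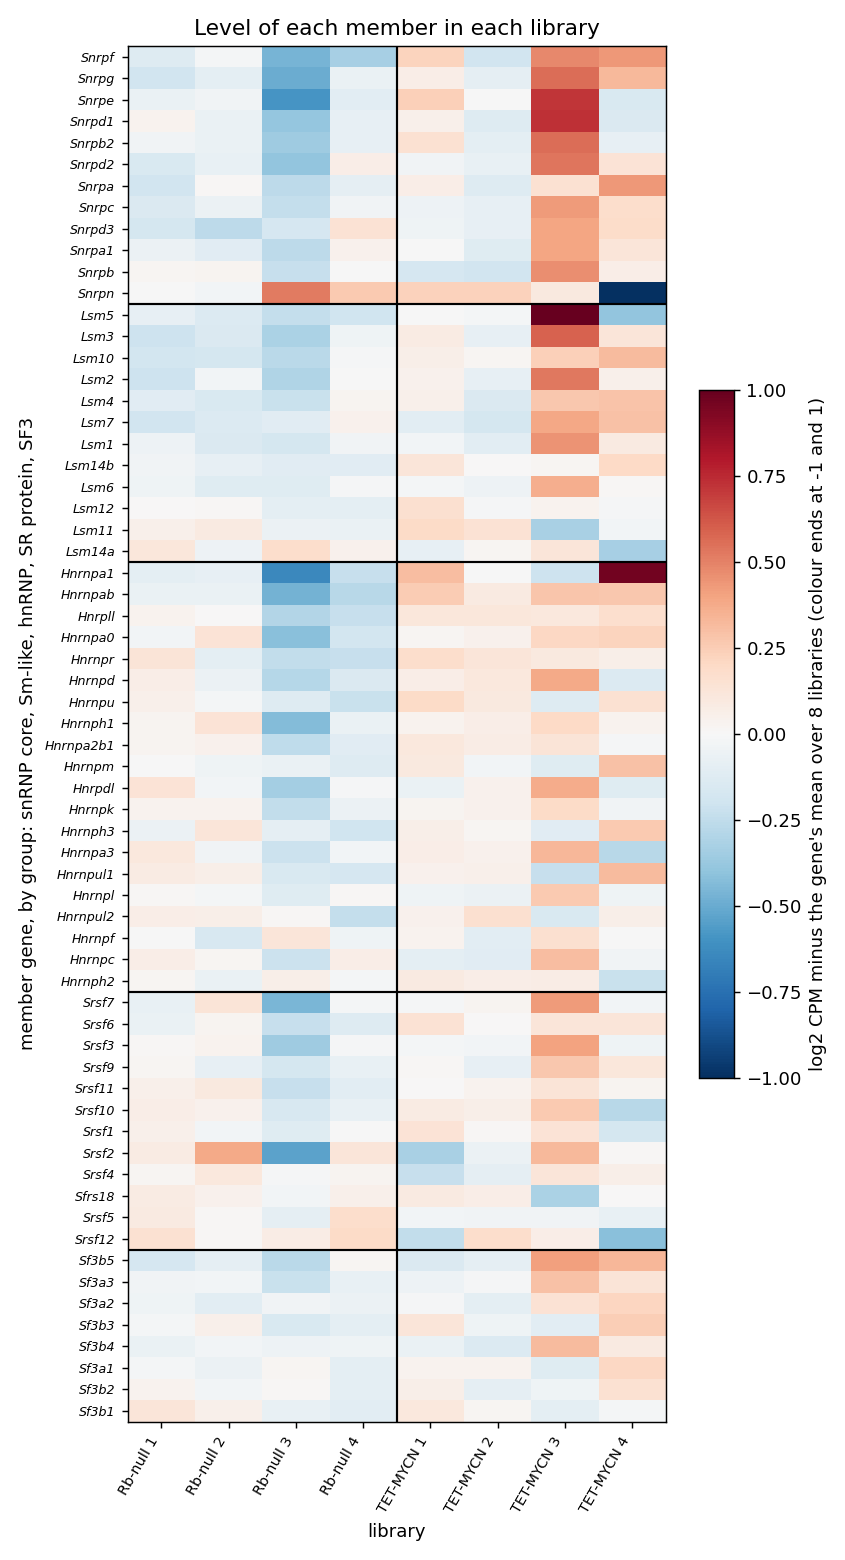
Level of each of the 64 genes (rows, by group) in each library (columns), as log2 CPM minus the gene's mean over the 8 libraries, from blue (low) to red (high), with the colours ending at -1 and 1. The column of Rb-null 3 is mostly blue and that of TET-MYCN 3 mostly red, and Hnrnpa1 in TET-MYCN 4 and Lsm5 in TET-MYCN 3 are the strongest reds and Snrpn in TET-MYCN 4 the strongest blue.

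Among the 12 snRNP core genes, Snrpf, Snrpg and Snrpe had the 3 largest values. Snrpf codes for SmF of the Sm ring. It stood at 25.1, 27.1, 19.98 and 21.9 CPM in Rb-null 1 to 4 and at 32.2, 24.1, 38.4 and 37.2 CPM in TET-MYCN 1 to 4. TET-MYCN 2 lay within the Rb-null range and the other 3 above it. The log2 fold change was 0.48 ± 0.16 (SE; adjusted p = 0.225). Snrpg, for SmG, was at 66.4, 70.9, 53.9 and 72.4 CPM in Rb-null 1 to 4 and at 79.6, 71.6, 112 and 95.2 CPM in TET-MYCN 1 to 4. Here too only TET-MYCN 2 overlapped the Rb-null libraries, and the log2 fold change was 0.44 ± 0.15 (adjusted p = 0.228).

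Snrpe codes for SmE, which forms a subcomplex with SmF and SmG before the ring closes. Its levels were 48.9, 50.1, 34.0 and 47.7 CPM in Rb-null 1 to 4 and 60.3, 51.2, 84.3 and 46.0 CPM in TET-MYCN 1 to 4. The groups overlapped through TET-MYCN 4, and the log2 fold change was 0.42 ± 0.20 (adjusted p = 0.335). Without TET-MYCN 3 it was 0.21. Snrpb, whose product SmB is another part of the ring, was at 292, 293, 246 and 287 CPM in Rb-null 1 to 4 and 257, 252, 398 and 302 CPM in TET-MYCN 1 to 4. Its log2 fold change was 0.11 ± 0.15 (adjusted p = 0.772), and -0.05 without TET-MYCN 3. All 7 genes of the Sm ring had positive values, with a median of 0.29.

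Snrpa codes for the A protein of the U1 snRNP. It was at 82.8, 95.7, 79.2 and 89.2 CPM in Rb-null 1 to 4 and at 99.5, 86.7, 105 and 128 CPM in TET-MYCN 1 to 4, with TET-MYCN 4 the highest and TET-MYCN 2 within the Rb-null range. The log2 fold change was 0.27 ± 0.13 (adjusted p = 0.328), and 0.16 without TET-MYCN 4. The other U1, U2 and Sm genes, Snrpa1, Snrpb2, Snrpc, Snrpd1, Snrpd2 and Snrpd3, had values between 0.20 and 0.29. For 5 of the 12 core genes the interval lay within a 1.5-fold change, and for the other 7 it reached past that size. Without TET-MYCN 3 the median of the group was 0.13, and without both Rb-null 3 and TET-MYCN 3 it was 0.07 with 9 of 12 positive.

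Snrpn, for the Sm protein SmN of neurons, was the one core gene with a negative value (-0.27 ± 0.33, adjusted p = 0.742), at 1.73, 1.70, 2.49 and 2.08 CPM in Rb-null 1 to 4 and 2.04, 2.03, 1.85 and 0.705 CPM in TET-MYCN 1 to 4. TET-MYCN 4 lay below all others, and without it the value was -0.01. Only 14 to 47 reads per library were counted there, and its partner Snurf, whose exons overlap those of Snrpn, was listed at 0 in all 8 libraries. Reads placed in several genes were left out of gene counts, so the Snrpn count can lack those in exons shared with Snurf. The level and the share given below may therefore be too low. SmN is a close relative of SmB and takes its place in neurons. Snrpn made up 0.722% ± 0.198 of the reads of Snrpb and Snrpn together in the Rb-null and 0.571% ± 0.274 in the TET-MYCN libraries, and the difference was within the spread (two-sided exact permutation test, p = 0.40, adjusted p = 0.80 over 2 such tests, smallest possible p = 0.0286). Without TET-MYCN 4 the difference was -0.0392 percentage points, against -0.152 with it.

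The Sm-like genes had the same direction as the Sm genes, with a smaller median. Lsm3, of the ring shared by the nuclear and cytoplasmic complexes, was at 23.8, 24.7, 22.01 and 26.6 CPM in Rb-null 1 to 4 and at 29.0, 25.8, 41.2 and 29.8 CPM in TET-MYCN 1 to 4. Its log2 fold change was 0.37 ± 0.15 (adjusted p = 0.279), and 0.22 without TET-MYCN 3, the highest library. Lsm10, a part of the U7 snRNP that matures histone mRNA, did not overlap between the groups, at 8.35, 8.38, 7.86 and 9.42 CPM in Rb-null 1 to 4 and 9.88, 9.60, 11.2 and 11.8 CPM in TET-MYCN 1 to 4. Its log2 fold change was 0.32 ± 0.14 (adjusted p = 0.297). Its U7 partner Lsm11 was at 0.01 ± 0.12 (adjusted p = 0.987) and did overlap.

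Lsm14b, a gene for an RNA granule protein, also did not overlap, at 122, 118, 115 and 115 CPM in Rb-null 1 to 4 and 136, 126, 127 and 144 CPM in TET-MYCN 1 to 4, and its value was 0.18 ± 0.09 (adjusted p = 0.342). Its relative Lsm14a, which acts in processing bodies, had a negative value, -0.13 ± 0.11 (adjusted p = 0.621), and -0.05 without TET-MYCN 4. Lsm4 was at 0.24 ± 0.12 (adjusted p = 0.354). The ring genes Lsm2 to Lsm7 were all positive, with a median of 0.26, and Lsm5 alone in TET-MYCN 3 reached 41.4 CPM against 14.9 to 19.6 CPM in the other 7 libraries. Without TET-MYCN 3 the median of the Sm-like group was 0.11, and without Rb-null 3 as well it was 0.07, still with 11 of 12 positive.

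HnRNP genes were all positive but mostly by little. Hnrnpab had the smallest p of the 64 (log2 fold change 0.43 ± 0.12, adjusted p = 0.173). It codes for an RNA-binding protein related to hnRNP D. Levels were 683, 685, 517 and 589.9 CPM in Rb-null 1 to 4 and 852, 763, 866 and 862 CPM in TET-MYCN 1 to 4, so every TET-MYCN library was above every Rb-null library. Its exons overlap those of Agxt2l2, and reads placed in several genes were left out of the counts. DESeq2 gave an adjusted p of 0.0203, and over the 18 other settings the adjusted p ranged from 0.0203 to 0.557, with log2 fold changes of 0.33 to 0.49.

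Hnrpll, now Hnrnpll, a splicing regulator known from T cells, did not overlap either. It was at 122, 119, 97.1 and 101 CPM in Rb-null 1 to 4 and 129, 129, 128 and 134 CPM in TET-MYCN 1 to 4, a difference of 0.24 ± 0.10 on the log2 scale (adjusted p = 0.289). The TET-MYCN libraries lay close together, with an SD of 2.50 CPM against 12.5 CPM in the Rb-null group. Hnrnpr, for a protein that is studied in axons of motor neurons, was at 180.5 ± 22.3 and 209.7 ± 7.21 CPM (0.22 ± 0.11, adjusted p = 0.349).

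Hnrnpa1, an abundant repressor of splice sites, had the largest value of the 64, 0.58 ± 0.25 (adjusted p = 0.296). It was at 19.0, 19.2, 13.0 and 17.3 CPM in Rb-null 1 to 4 and at 25.2, 20.2, 17.6 and 39.6 CPM in TET-MYCN 1 to 4. TET-MYCN 3 lay within the Rb-null range and TET-MYCN 4 far above, and without TET-MYCN 4 the log2 fold change was 0.29. This gene has 11 annotated pseudogenes of at least 95% identity over at least 100 aligned bases. Reads that align to several places were not counted in genes, so its level is of uniquely placed reads and is uncertain. Hnrnpa3 has 26 such copies, the most of the 64, and Hnrnpf has 6. The 23 genes with at least 1 copy and the 41 without had medians of 0.16 and 0.15. Exons of 9 of the 64 overlap another gene's, among them Snrpa, Snrpf, Sf3a2 and Sf3b3.

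Hnrnpa2b1, which shares many RNA targets with Hnrnpa1, was at 1489 ± 140.1 and 1648 ± 68.7 CPM (0.15 ± 0.12, adjusted p = 0.574). The remaining hnRNP genes lay between 0.01 (Hnrnph2) and 0.24 (Hnrnpa0). For 18 of 20 the interval lay within a 1.5-fold change. The group's median was 0.09 without Rb-null 3 and TET-MYCN 3, with 15 of 20 positive.

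SR protein genes showed no common direction. Srsf6 had the smallest p of the group. It was at 459, 492, 410.2 and 441 CPM in Rb-null 1 to 4 and at 534, 484, 525 and 526 CPM in TET-MYCN 1 to 4, with TET-MYCN 2 below Rb-null 2, and its log2 fold change was 0.20 ± 0.10 (adjusted p = 0.361). Srsf9 and Srsf7 had values of 0.16 ± 0.10 and 0.21 ± 0.15 (adjusted p = 0.467 and 0.541), and of 0.09 each without TET-MYCN 3. Srsf12 was at 17.4 ± 0.963 and 15.2 ± 2.85 CPM (-0.19 ± 0.15, adjusted p = 0.564), with values of -0.09 without TET-MYCN 4 and -0.30 without TET-MYCN 2.

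Srsf3, the smallest SR protein, was at 506, 515, 392 and 497 CPM in Rb-null 1 to 4 and 495, 491, 664 and 486 CPM in TET-MYCN 1 to 4. Apart from Rb-null 3 and TET-MYCN 3 its libraries lay between 486 and 515 CPM. The log2 fold change was 0.16 ± 0.14 (adjusted p = 0.621), and -0.05 without these 2 libraries. Srsf2 had the largest standard error of the group and was at 759, 930.4, 495 and 781 CPM in Rb-null 1 to 4 and 573, 690, 897 and 725 CPM in TET-MYCN 1 to 4 (-0.04 ± 0.20, adjusted p = 0.950), and its value was -0.32 without Rb-null 3 and TET-MYCN 3. Srsf1, the founding member of the family, was at 0.06 ± 0.11 (adjusted p = 0.854). Each SR protein gene had an interval within a 1.5-fold change, 12 of 12. The median of the group was 0.02 without TET-MYCN 3, 0.03 without Rb-null 3, 0.11 without TET-MYCN 4, and -0.04 with 2 of 12 positive without both Rb-null 3 and TET-MYCN 3.

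SF3 genes, which serve branch point recognition, were all positive by little. Sf3b1, the SF3B subunit mutated in several cancers, was at 421, 401, 368 and 361 CPM in Rb-null 1 to 4 and 418, 392, 362 and 383 CPM in TET-MYCN 1 to 4. The groups overlapped throughout, and the log2 fold change was 0.00 ± 0.10 (adjusted p = 0.995, 95% interval -0.22 to 0.22). Sf3b5, a small SF3B subunit, was at 43.4, 45.6, 40.3 and 49.4 CPM and at 43.9, 45.7, 64.7 and 61.2 CPM, with TET-MYCN 1 and 2 inside the Rb-null range (0.27 ± 0.14, adjusted p = 0.387). Sf3a3, Sf3a2 and Sf3b3 had values of 0.18 ± 0.10, 0.12 ± 0.09 and 0.11 ± 0.11 (adjusted p = 0.409, 0.551 and 0.646), the last 2 being 0.07 and 0.05 without TET-MYCN 4. For 7 of 8 genes the interval lay within a 1.5-fold change. The median of the group was 0.06 without TET-MYCN 4, and 0.08 with 8 of 8 positive without Rb-null 3 and TET-MYCN 3.

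**Figure D4:**
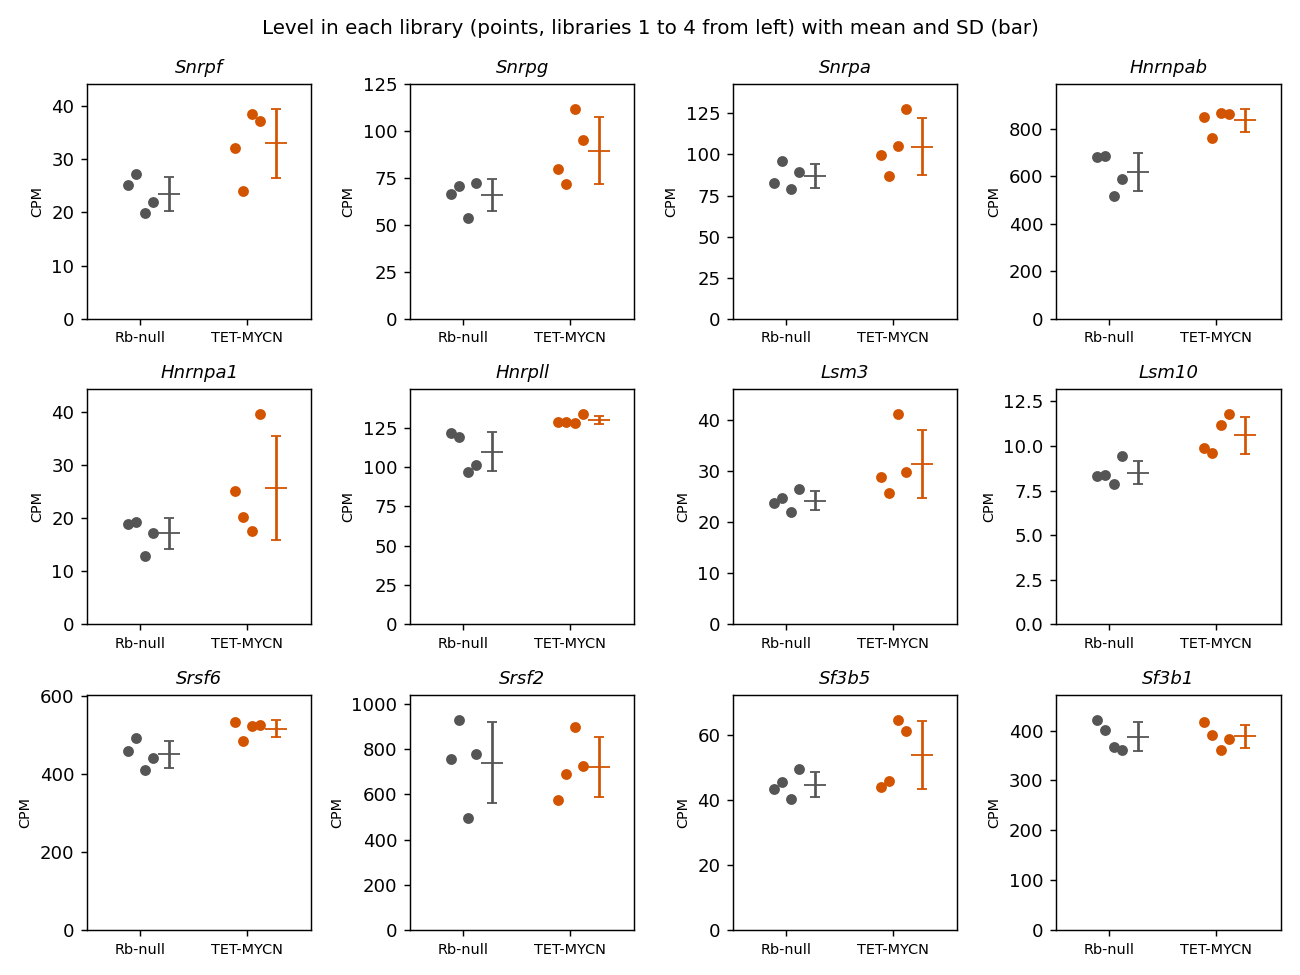
CPM of 12 of the genes in each library (points, libraries 1 to 4 from left to right within a group) with the mean and SD of the group (bar), each on its own axis from 0. Hnrnpab, Hnrpll and Lsm10 do not overlap between the groups, while Srsf2 and Sf3b1 overlap throughout.

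Medians were larger among short genes. Of the 64, 16 have a coding length under 500 bases (6 Snrp and 8 Lsm genes, Srsf3 and Sf3b5), and all 16 were positive, their median being 0.29 on the log2 scale. Of all genes tested under 500 bases 61.5% were positive, with a median of 0.07. The 9 genes of 2000 bases or more had a median of 0.08, against -0.01 for all genes of that length. TET-MYCN 3 was the highest library for 14 of the 16 short genes and for 0 of the 9 long ones. Over all genes tested, TET-MYCN 3 was highest for 60.7% of 1125 genes under 500 bases and for 3.57% of 4454 genes of 2000 bases or more. Without TET-MYCN 3 the 16 short genes had a median of 0.14, against -0.07 for all genes of that class. The 9 long ones then had 0.13, against 0.06 for all genes of theirs. In Rb-null 3 the median level went from -0.06 in the shortest to 0.03 in the longest class over all genes, and from -0.28 to -0.07 among the 64. Whether length bears on these values was not tested.

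**Figure D5:**
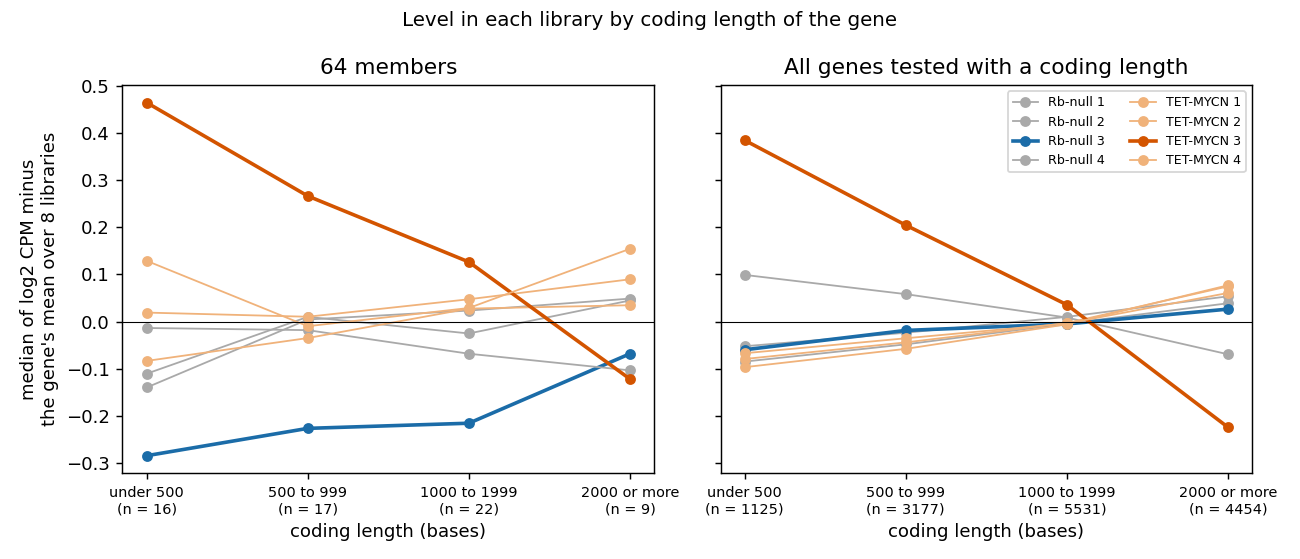
Median of log2 CPM minus the gene's mean over the 8 libraries (vertical axis) by coding length class (horizontal axis), 1 line per library, for the 64 genes (left) and for all genes tested that have a coding length (right). TET-MYCN 3 falls from 0.46 to -0.12 with length on the left and from 0.38 to -0.22 on the right, and Rb-null 3 goes from -0.28 to -0.07 on the left and from -0.06 to 0.03 on the right.

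MYC proteins bind the E-box, with CACGTG as its classical form, so the promoters of these genes were searched for these letters (a palindrome, the same on both strands) from 250 bases before to 50 bases after the start of transcription. RefSeq windows (GRCm38.p6) were found for 54 of the 64 genes, and 6 of them (11.1%) held CACGTG, against 9.25% of the 17583 genes of the count files that have a window. Over single windows the shares were 9.59% and 8.11%. Genes with a match were Snrpa among 10 snRNP core genes and Hnrnpa3, Hnrnpd, Hnrnpf, Hnrnph2 and Hnrnpm among 18 hnRNP genes, with none among the Sm-like, SR protein and SF3 genes. The 6 genes had a median log2 fold change of 0.11, and the 48 without had 0.16. In Hnrnph2 and Hnrnpm the match lies after the start, and in Hnrnpf it lies in 1 of 4 windows. The upstream matches follow with their flanks, 5′ to 3′ on the gene's strand, with the E-box in capitals, to show where it sits in the 4 genes that have one there.
Snrpa (first start, chr7:27196319-27196364, minus strand): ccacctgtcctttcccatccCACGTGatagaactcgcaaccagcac
Snrpa (first start, chr7:27196278-27196323, minus strand): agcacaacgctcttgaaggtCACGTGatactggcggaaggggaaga
Snrpa (second start, chr7:27195804-27195849, minus strand): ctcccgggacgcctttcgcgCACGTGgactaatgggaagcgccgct
Hnrnpa3 (chr2:75659221-75659258, plus strand): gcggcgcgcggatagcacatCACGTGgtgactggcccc
Hnrnpd (chr5:99978945-99978990, minus strand): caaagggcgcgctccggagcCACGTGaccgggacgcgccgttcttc
Hnrnpf (chr6:117907705-117907750, plus strand): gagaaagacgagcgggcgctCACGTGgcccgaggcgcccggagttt
Snrpa is the one gene of the 64 with 3 matches, each upstream of the start named beside it, and its values are given above. Hnrnpa3, Hnrnpd and Hnrnpf had log2 fold changes of 0.10 ± 0.14, 0.21 ± 0.13 and 0.04 ± 0.11, all with groups that overlapped. The match is a description of these letters and not of binding.

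Of 115 other splicing genes tested, in 5 lists, 0 passed in either direction with edgeR (0.0596% of all genes did), and DESeq2 called 1 (3.57% of all genes). With an unadjusted p under 0.05, 6 were higher (5.22%, against 8.06% of all genes) and 7 lower (7.72% of all genes were). Their median log2 fold change was 0.09, with 79 positive. The SMN complex and methylosome genes, which build the Sm ring, had a median of 0.16, with 12 of 14 positive. Prmt1, an arginine methyltransferase that acts on many hnRNP proteins, was at 171 ± 11.2 and 220.4 ± 38.9 CPM (0.36 ± 0.14, adjusted p = 0.250), and Gemin6 and Gemin5 of the SMN complex had values of 0.34 ± 0.15 and 0.33 ± 0.17 (adjusted p = 0.320 and 0.389). Prmt5, which methylates Sm proteins, did not overlap, at 88.8, 85.4, 86.3 and 89.4 CPM in Rb-null 1 to 4 and 97.6, 89.8, 90.3 and 109 CPM in TET-MYCN 1 to 4 (0.14 ± 0.09, adjusted p = 0.474), and its value was 0.08 without TET-MYCN 4.

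The list of other snRNP proteins and their partners had a median of 0.10, with 22 of 27 positive. It was led by Usp39, Nhp2l1 and Snrnp40 at 0.27 ± 0.12, 0.27 ± 0.13 and 0.23 ± 0.12 (adjusted p = 0.321, 0.358 and 0.368). The Prp19 complex, helicases and exon junction genes had a median of 0.07, with 15 of 23 positive. There Isy1, of the catalytic spliceosome, did not overlap, at 23.6 ± 1.85 and 30.4 ± 4.61 CPM (0.37 ± 0.13, adjusted p = 0.232), while the helicase genes Dhx15 and Ddx39b were both at 0.19 (adjusted p = 0.362 and 0.453). SR protein kinases and partners had a median of 0.01, with 7 of 13 positive. Srpk3 was low, at 1.18 ± 0.171 and 0.761 ± 0.215 CPM (-0.62 ± 0.27, adjusted p = 0.305). Srpk1 and Tnpo3, the importer of SR proteins, had values of 0.29 ± 0.15 and 0.20 ± 0.11 (adjusted p = 0.388 and 0.381).

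Tissue splicing regulators had values on both sides of 0, with 23 of 38 positive and a median of 0.10. Celf3, of a family that acts in neurons, was at 228, 189.3, 267 and 257 CPM in Rb-null 1 to 4 and 169, 189.0, 182 and 171 CPM in TET-MYCN 1 to 4. The groups did not overlap, though Rb-null 2 and TET-MYCN 2 nearly met. Its log2 fold change was -0.40 ± 0.12 (adjusted p = 0.190, 0.0468 with DESeq2, up to 0.529 over the other settings). Srrm3, which promotes microexons in neurons, was at -0.25 ± 0.10 (adjusted p = 0.276), and Khdrbs1, for Sam68, at 0.26 ± 0.10 (adjusted p = 0.256).

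Ptbp1 and Ptbp2 code for the hnRNP I proteins of progenitors and of developing neurons, which replace each other as neurons form. Ptbp1 was at 210.0 ± 48.6 and 237 ± 13.3 CPM (0.18 ± 0.16, adjusted p = 0.630), with values of 0.04 without Rb-null 3 and 0.31 without Rb-null 2. Ptbp2 was at 219 ± 21.6 and 254 ± 18.2 CPM (0.21 ± 0.11, adjusted p = 0.357). Ptbp2 made up 52.6%, 46.3%, 56.5% and 50.6% of the reads of both in Rb-null 1 to 4 and 54.0%, 52.9%, 52.4% and 47.4% in TET-MYCN 1 to 4. The highest and the lowest share were both in the Rb-null group, and the group means of 51.5% ± 4.23 and 51.7% ± 2.93 differed by less than the spread (two-sided exact permutation test, p = 0.971, adjusted p = 0.971).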

How the data were processed

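The authors deposited raw read counts per gene symbol for each of the 8 libraries, made from oligo-dT selected RNA per the labels. CASAVA 1.8.2, TopHat2 2.0.8b, HTSeq 0.5.4p3 and the build mm9 are named per the submitters' processing notes. The annotation and any use of strand were not given in the sources used here. Which genes lost reads that were placed in several genes is therefore not known, and antisense reads cannot be told apart. HTSeq's rows that name no gene stayed out of library sizes and tests. They hold 9.05% to 12.8% (reads aligned to several places), 15.1% to 19.7% (no gene) and 0.87% to 1.09% (several genes) of a library. Replicates differed by more than counting noise.

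Counts were scaled by TMM, filterByExpr kept 15106 genes, and edgeR 4.0.16 (R 4.3.3) tested the groups with estimateDisp, glmQLFit (robust) and glmQLFTest, with no covariate and Benjamini-Hochberg adjustment over all genes at 0.05. Standard errors are the absolute log2 fold change over the square root of F, and 95% intervals use them with the fit's degrees of freedom. Settings also tried were DESeq2's size factors, total counts, no filter, 1 CPM in 4 libraries, DESeq2 1.42.0, limma-voom (limma 3.58.1), a replicate block, each library left out, and 3 pairs of libraries left out. Shares were compared over all 70 arrangements of the libraries. The genes with values given were the 4 with the smallest p and the one with the highest mean CPM in each group, Snrpb, Snrpn, Hnrnpa1 and Srsf3, and the 3 with the smallest p in each other list with Ptbp1, Ptbp2 and Prmt5. Other genes were named after their values were seen, as were the Sm ring, Lsm2 to Lsm7, coding length and pseudogene counts. Genes and lists were chosen with earlier results of these data known. Coding length is the longest in GENCODE M21 basic (GRCm38), found for 94.6% of genes tested. Pseudogene copies were searched with blastn 2.17.0 in 13583 pseudogenes of that annotation. Figures used Python 3.11.15 and matplotlib 3.10.9.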

Additional observations from a re-analysis of the deposited data

Results flagged for a closer look

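Single libraries stood apart from the other 3 of their group in 9 of 70 groups of 4 examined with Dixon's test, where chance gives about 1 in 20. The 70 groups come from the same 8 libraries and are not independent, so this rate is only a rough guide. Rb-null 3 was low for Snrpe (34.0 CPM against 47.7 to 50.1), Snrpb (246 CPM against 287 to 293) and Srsf3 (392 CPM against 497 to 515). TET-MYCN 3 was high for Srsf3 (664 CPM against 486 to 495), Srsf7 (429 CPM against 314 to 327) and the median relative level of the SR protein genes (0.13 against -0.01 to 0.01 on the log2 scale). TET-MYCN 2 was low for Hnrnpab (763 CPM against 852 to 866) and TET-MYCN 4 low for Snrpn (0.705 CPM against 1.85 to 2.04). TET-MYCN 4 was high for Hnrpll (134 CPM against 128 to 129), a gap that is small beside the level.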

How the results depend on the processing

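Over the 18 other settings the number of the 64 genes called stayed 0, except for 1 with DESeq2 (Hnrnpab), which also called 1 of the other splicing genes (Celf3). The number of all genes called, 9 in the fit reported, was 17 without a filter, 539 with DESeq2, 3 with the replicate block, 0 with limma-voom (though 7.43% were higher at an unadjusted p under 0.05), 0 to 230 with each library left out (132 without TET-MYCN 2, 230 without TET-MYCN 3), 0 without Rb-null 2 and 3, the libraries highest in lens markers, 41 without Rb-null 1 and TET-MYCN 3, which lead in multiply aligned reads, and 34 without Rb-null 3 and TET-MYCN 3. The last pair was chosen after seeing the data. Without it the medians were 0.057 for all 64, 0.069 for the snRNP core, 0.074 for the Sm-like genes and -0.04 for the SR proteins, and the log2 fold changes of Snrpb, Srsf7, Srsf3 and Mycn were -0.11, -0.026, -0.053 and -0.24. Without Rb-null 1 and TET-MYCN 3 the median of the Sm-like genes was 0.10 and Snrpb was at -0.039. Sf3b1 was at -0.00354 with DESeq2's size factors, -0.00368 with DESeq2 and -0.010 without Rb-null 2 and 3. With each library left out the median of the 64 ranged from 0.10 to 0.19, Snrpb from -0.047 to 0.18, Srsf2 from -0.19 to 0.089, Sf3b1 from -0.041 to 0.045, Mycn from -0.17 to 0.31, Rb1 from -0.14 to 0.036 and the difference in the Ptbp2 share from -1.57 to 1.83 percentage points. The cause was not tested. Of 486 values of the 27 named genes under other settings, 471 kept direction and side of the threshold and 14 changed sign. No scaling moved the median of all genes by over 0.1.

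Libraries of the same number did not deviate together (correlations over 15106 genes of -0.04, -0.06, -0.12 and -0.29 for numbers 1 to 4), and no Rb-null library correlated best with its own number. With the replicate number as a block, 3 genes were called, 0 of them among the 64, and the median of the 64 was 0.15. The Snrpn share differed by -0.15 percentage points and the Ptbp2 share by 0.16 with this pairing (exact sign-flip test, p = 0.50 and 1). With 4 pairs this test cannot give a p under 0.05, so it cannot decide here.

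The median standard error was 0.12 on the log2 scale for the 64 genes and 0.33 for Snrpn, with 14 to 47 reads a library. Intervals and floors cover the spread between these libraries or counting error only.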
